A study of Mus musculus with 100 samples.

Results

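The genes described here are the 4 reprogramming factors that the MEFs and iPSCs of this study carry as an inducible cassette, Pou5f1 (which encodes Oct4), Sox2, Klf4 and Myc, together with Nanog and Mycn. They were taken by name from the gene column of the expression table and are 6 of its 25965 genes. Their levels come from the values over all reads in 18 RNA-seq libraries, and their allelic use comes from the reads that could be assigned to the BL6 or the CAST genome.

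There are 6 groups of 3 libraries each. The female MEFs are fibroblasts from an embryo of an i4F-BL6 mother, which carries the doxycycline-inducible cassette and its transactivator, and a CAST father. F KSR2 and F KSR4 are female, and M KSR3 and M KSR5 male, KSR-iPSC lines that were reprogrammed from such MEFs with doxycycline and then kept without it, on feeder cells, in medium with knockout serum replacement and LIF. Each line is 1 picked clone, and the MEFs of each sex came from a single embryo, so the female and male lines also differ in the embryo. TX 2i ESCs are the female ESC line TX1072, with the same direction of cross, kept in serum, LIF and 2i, which inhibits MEK and GSK3. The labels number the replicates, and where these were not separate cultures the p-values measure only the spread between the libraries. Even with separate cultures, the fits with a mean for each group hold no measure of variation between clones, embryos or ESC lines. KSR-iPSC lines and TX 2i ESCs differ in medium, origin and line, which cannot be told apart here. The allelic columns were checked against genes of known parent of origin: in the male lines 99.6 to 99.9% of allelic X-linked reads were BL6, and in the MEFs 99.8 to 99.96% of H19 reads were BL6 and 0.0% of Peg3 reads.

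Oct4 and Sox2 are transcription factors that bind DNA side by side on composite sites, and with Nanog they hold the network of pluripotent cells in place by activating each other and many shared targets. Klf4 is a zinc finger factor that acts with them in naive pluripotency and is also expressed in differentiated cells such as fibroblasts and epithelia. Myc and Mycn are basic helix-loop-helix proteins that bind E-boxes as dimers with Max, drive growth and biosynthesis, and can replace each other in many settings.

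On GRCm38 the table places Pou5f1 (ENSMUSG00000024406) on the plus strand at chr17:35506037-35510776, Sox2 (ENSMUSG00000090828) on the plus strand at chr3:34650005-34652461 and Nanog (ENSMUSG00000012396) on the plus strand at chr6:122707489-122714633. Klf4 (ENSMUSG00000003032) lies on the minus strand at chr4:55527143-55532466, Myc (ENSMUSG00000022346) on the plus strand at chr15:61985391-61990374 and Mycn (ENSMUSG00000037169) on the minus strand at chr12:12936096-12941914. The exons of their curated RefSeq transcripts cover 1443 bases in Pou5f1, 2467 in Sox2, 2242 in Nanog, 3044 in Klf4, 2399 in Myc and 2596 in Mycn. The reads were counted per gene, so transcripts of the cassette, if present, would be counted together with those of the endogenous Pou5f1, Sox2, Klf4 and Myc and cannot be told apart here.

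The 250 bases before the start site are shown for 4 of these genes. The windows were searched for letters that these same proteins are known to bind. The Mycn window, which held GC boxes alone, is not shown. The sequences are those of RefSeq for GRCm38.p6, 5′ to 3′ on the strand of the gene, and 5 of the 6 genes had a window, in 7 windows in all; Myc had none. Capitals mark the Oct half-site ATGCAAA, the Sox half-site CATTGT, the E-box CACGTG and the GC box GGGCGG, searched on both strands.
Nanog, chr6:122707239-122707488: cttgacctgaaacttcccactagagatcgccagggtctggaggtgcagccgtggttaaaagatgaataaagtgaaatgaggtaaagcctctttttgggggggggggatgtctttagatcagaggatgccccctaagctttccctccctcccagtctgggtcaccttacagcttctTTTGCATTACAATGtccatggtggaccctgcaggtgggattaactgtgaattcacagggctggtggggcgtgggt
Pou5f1, chr17:35505782-35506031: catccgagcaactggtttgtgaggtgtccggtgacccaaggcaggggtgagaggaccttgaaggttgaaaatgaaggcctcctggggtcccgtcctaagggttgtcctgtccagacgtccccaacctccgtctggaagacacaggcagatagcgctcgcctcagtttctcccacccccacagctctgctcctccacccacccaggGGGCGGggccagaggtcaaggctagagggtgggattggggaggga
Sox2, chr3:34649745-34649994: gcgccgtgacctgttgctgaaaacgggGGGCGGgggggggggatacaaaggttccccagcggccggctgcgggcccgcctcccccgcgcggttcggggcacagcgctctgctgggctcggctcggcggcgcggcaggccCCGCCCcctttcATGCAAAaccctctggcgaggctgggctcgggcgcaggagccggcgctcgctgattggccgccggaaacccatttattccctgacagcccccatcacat
Klf4, chr4:55532476-55532725: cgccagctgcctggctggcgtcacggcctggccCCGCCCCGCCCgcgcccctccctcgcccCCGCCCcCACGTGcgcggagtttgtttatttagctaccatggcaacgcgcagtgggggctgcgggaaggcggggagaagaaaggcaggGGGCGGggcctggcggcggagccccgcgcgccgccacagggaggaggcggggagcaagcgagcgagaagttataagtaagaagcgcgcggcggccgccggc

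Of 32851 promoter windows of this length, 4.12% held an Oct half-site, 10.7% a Sox half-site, 6.02% an E-box and 32.7% a GC box. The Nanog window held a Sox half-site and an Oct half-site separated by 1 base, on the opposite strand, between positions -75 and -62 from the start site. Only 2 of the 32851 windows held this arrangement, 0.00609%, and both were overlapping windows of Nanog that hold the same site. The Sox2 window held an Oct half-site between positions -99 and -93. The Klf4 window held an E-box between -182 and -177 and 4 GC boxes. In the Pou5f1 window shown the only match was a GC box, between -45 and -40, and a second Pou5f1 window held a Sox half-site. The Mycn window held 2 GC boxes. Klf4 and Sox2 have the windows richest in CpG, with 32 and 27 CpG, against 8 in Pou5f1, 3 in Nanog and a median of 6 over all windows. A match describes the letters only, and binding was not measured in these data.

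The depth was 13183036 to 17921280 reads on genes (median 15722711), of which 17.7 to 19.9% could be assigned to an allele. Levels are log2 RPM, reads scaled to the total of the library, without correction for length; 1 read stood at -4.29 to -3.89. The 15 fibroblast markers summed to a log2 RPM of 15.09 to 15.54 in the MEFs and 9.18 to 10.85 in the pluripotent groups. The sum was 9.78 to 10.34 in TX 2i ESCs. Lum, Dcn, Col3a1 and Prrx1 had 0 reads in all 3 TX 2i ESC libraries. Col5a1 was higher there, with a median of 519 reads against 142 in the KSR-iPSC lines. Against TX 2i ESCs, 4 of the 15 markers passed in limma as higher and 2 as lower in the lines, beside 23.0% of all genes. The median level of the 15 markers was 0.0871 to 0.694% of that of the MEFs, with the highest value in M KSR5 and at most 0.283% in the other pluripotent groups. The 7 endoderm markers summed to 7.62 to 7.87 in M KSR3, 4.80 to 6.51 in the other KSR-iPSC lines and 3.70 to 4.73 in TX 2i ESCs. In these bulk samples fewer cells that express a gene and less RNA per cell cannot be told apart. Replicate 2 of F KSR4 stood apart for the Myc genes, and several Myc and Mycn results are given with and without it.

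Oct4, Sox2, Nanog and Mycn transcripts separated the MEFs from every pluripotent library. Pou5f1 had 0 reads in each of the 3 MEF libraries and 12485 to 23757 reads in the 15 pluripotent libraries. With the MEFs set to 3 reads in each library, the limit that a count of 0 allows, the level in TX 2i ESCs was at least 8007-fold higher, that in M KSR5 at least 6940-fold, in F KSR2 6560-fold, in M KSR3 5349-fold and in F KSR4 5302-fold. Nanog had 7, 4 and 3 reads in the MEFs and 3844 to 29101 in the pluripotent libraries. Sox2 had 15, 40 and 30 reads in the MEFs and 5757 to 11767 in the pluripotent libraries, and Mycn had 24, 40 and 34 against 1295 to 6145. The MEFs and the pluripotent libraries did not overlap for any of these 4 genes. Such separation was not counted over all genes, of which 74.6% passed between these groups in limma in either direction.

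Klf4 and Myc were already transcribed in the MEFs. Klf4 stood at a log2 RPM of 6.12, 6.69 and 6.87 in the MEFs, and at 6.24 to 8.23 with a median of 7.72 in the 15 pluripotent libraries. Its ranges overlapped, since 1 library each of F KSR4 and M KSR5 lay within the range of the MEFs. Myc stood at 6.01, 7.03 and 7.16 in the MEFs and between 1.32 and 7.22, with a median of 6.01, in the pluripotent libraries. Its levels in M KSR3 and M KSR5 lay within or close to the range of the MEFs, and those of TX 2i ESCs lay below it.

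**Figure D1:**
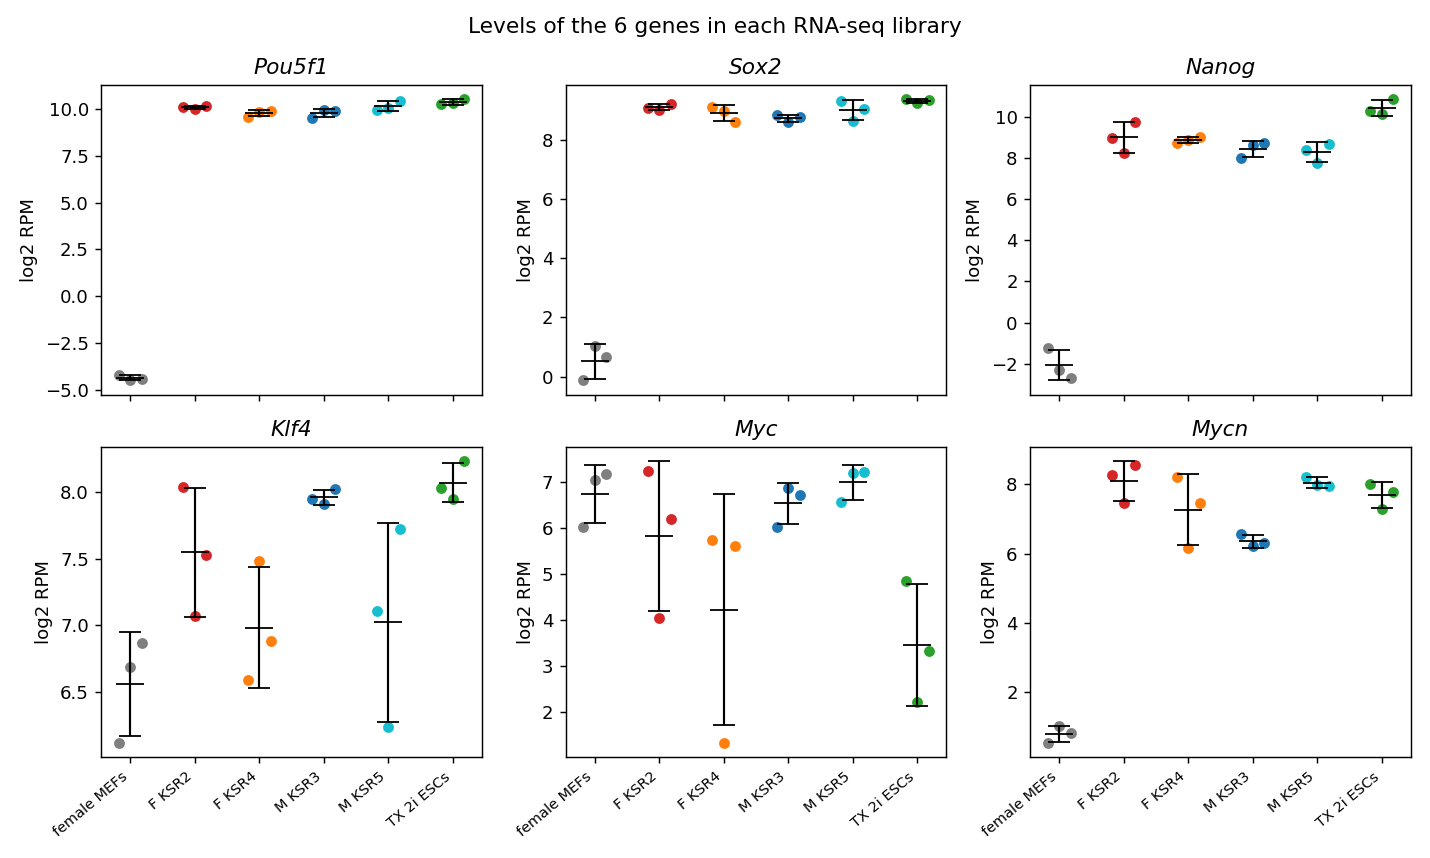
Each panel plots the level of 1 gene as log2 RPM on its own axis, with 1 point per library and the mean and SD (n = 3) of each group as black bars. Pou5f1 in the MEFs is plotted at the value of 0.9 read because it had 0 reads. Nanog is highest in TX 2i ESCs, and the Myc libraries of F KSR2, F KSR4 and TX 2i ESCs spread widely, with replicate 2 of F KSR4 at 1.32.

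In the fit of all 18 libraries with limma, 5 of the 6 genes passed an adjusted p of 0.05 between the mean of the 5 pluripotent groups and the MEFs, and these 5 were higher in the pluripotent groups. This is read against a background of 74.6% of all 14632 genes tested that passed in either direction, and 42.1% that passed as higher. The fitted log2 differences were 11.06 ± 0.29 (SE) for Nanog (adjusted p = 1.71e-15), 8.49 ± 0.18 for Sox2 (adjusted p = 8.83e-17) and 6.69 ± 0.29 for Mycn (adjusted p = 1.16e-12). Klf4 was 1.94-fold higher, with a log2 difference of 0.96 ± 0.25 (adjusted p = 0.00204). Myc did not pass, with a log2 difference of -1.34 ± 0.73, an interval of -2.89 to 0.21 and an adjusted p of 0.107; without replicate 2 of F KSR4 the difference was -1.05.

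Taken group by group, 25 of 30 pairs of a gene and a pluripotent group passed against the MEFs. In F KSR2 5 genes passed, where the background was 67.0% of all genes, as did 5 in F KSR4 (65.8%) and 5 in M KSR3 (67.6%). In M KSR5 4 passed (67.9%), and in TX 2i ESCs all 6 (66.5%). Klf4 passed as higher in M KSR3, by 1.40 ± 0.32 (adjusted p = 0.000868), in TX 2i ESCs, by 1.51 ± 0.32 (adjusted p = 0.000468), and in F KSR2, by 0.99 ± 0.32 (adjusted p = 0.0112). In F KSR2 this call was lost with median-of-ratios scaling (0.73, adjusted p = 0.0588), without MEF replicate 1 (adjusted p = 0.0596) and without F KSR2 replicate 1 (adjusted p = 0.0677). The Klf4 difference of F KSR4 was 0.43 with an interval of -0.25 to 1.1, and that of M KSR5 was 0.46 with an interval of -0.21 to 1.13, which reached 0.85 (adjusted p = 0.0203) without M KSR5 replicate 2.

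Myc passed in 2 groups, both lower than the MEFs. In TX 2i ESCs it was 9.77-fold lower, a log2 difference of -3.29 ± 0.95 (adjusted p = 0.00547). In F KSR4 the difference was -2.52 ± 0.95 (adjusted p = 0.0265), and it was -1.08 (adjusted p = 0.202) without replicate 2 of that line. That call was also lost without MEF replicate 2 or 3 and in a fit of these groups alone (adjusted p = 0.0605, 0.0655 and 0.0645). The interval of the Myc difference was -1.75 to 2.24 in M KSR5, -2.21 to 1.78 in M KSR3 and -2.91 to 1.08 in F KSR2.

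Levels of different genes can be compared only per length. In log2 RPM per kb of exon the mean over the 15 pluripotent libraries was highest for Pou5f1, 9.49 ± 0.28 (SD), followed by Nanog with 7.83 ± 0.88, Sox2 with 7.71 ± 0.27, Mycn with 6.11 ± 0.81, Klf4 with 5.91 ± 0.61 and Myc with 4.13 ± 1.88. Nanog and Sox2, and likewise Mycn and Klf4, differed by less than their spread. In the MEFs the order on the same scale was Myc with 5.47 ± 0.63 (n = 3), Klf4 with 4.95 ± 0.39, Mycn with -0.57 ± 0.24, Sox2 with -0.78 ± 0.59 and Nanog with -3.23 ± 0.75, with Pou5f1 at 0 reads. Within a gene, neighbouring groups in the order of means had overlapping libraries in 22 of 30 cases: in all 5 cases for Klf4 and for Myc, 4 for Mycn, 3 each for Pou5f1 and Sox2, and 2 for Nanog. Such overlaps were not counted over all genes.

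Nanog was lower in every KSR-iPSC library than in any library of TX 2i ESCs. Its log2 RPM was 10.26, 10.14 and 10.85 in the 3 TX 2i ESC libraries, and 7.75 to 9.75 with a median of 8.70 in the 12 KSR-iPSC libraries. These ranges did not overlap, a separation that was not counted over all genes. The mean of the 4 lines was 3.43-fold lower than TX 2i ESCs, a log2 difference of -1.78 ± 0.30 (adjusted p = 0.000382), and this passed in all 22 alternatives tried, with values from -1.92 to -1.56.

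Pou5f1 and Myc also passed in this comparison. Pou5f1 stood at 10.24, 10.31 and 10.52 in TX 2i ESCs and at 9.50 to 10.42 in the KSR-iPSC lines, overlapping ranges, with a 1.34-fold lower mean in the lines (log2 difference -0.42 ± 0.13, adjusted p = 0.0231). This call was lost without TX 2i ESC replicate 2 (adjusted p = 0.0663) or replicate 3 (adjusted p = 0.15). Myc stood at 4.83, 2.20 and 3.31 in TX 2i ESCs, from 506, 86 and 156 reads, and at 1.32 to 7.22 with a median of 6.37 in the lines. Its mean was 5.41-fold higher in the lines, a log2 difference of 2.44 ± 0.75 (adjusted p = 0.0259), which fell to 1.81 (adjusted p = 0.185) without TX 2i ESC replicate 2 and stood at 2.37 (adjusted p = 0.0964) without replicate 3.

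Thus 3 of the 6 genes passed, against 23.0% of the 14632 genes tested in either direction; 2 of them were lower in the lines, against 12.0% of all genes that passed as lower. Klf4 stood at 8.03, 7.95 and 8.23 in TX 2i ESCs and at 6.24 to 8.04 in the lines, with a log2 difference of -0.69 ± 0.25 that missed the threshold (adjusted p = 0.058). It passed when F KSR4 replicate 2 was left out (-0.75, adjusted p = 0.0268), and also without F KSR2 replicate 1 (adjusted p = 0.0371) or M KSR5 replicate 3 (adjusted p = 0.0205). The difference of Sox2 was -0.38 with an interval of -0.77 to 0.01, and that of Mycn was -0.24 with an interval of -0.86 to 0.38.

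Line by line, 11 of 24 pairs passed against TX 2i ESCs: 4 genes in M KSR3 (background 23.1%), 3 in M KSR5 (18.2%), 3 in F KSR4 (15.4%) and 1 in F KSR2 (12.8%). The number of pairs was 9 without the filter on low values and with median-of-ratios scaling, 10 in fits of the groups compared alone and 12 with limma-voom or with 1 added to each RPM. Sox2 in M KSR3 (-0.58, adjusted p = 0.0832) passed in the last 3 of these settings, with adjusted p of 0.00247, 0.0259 and 0.0344. Nanog passed in each line, with log2 differences of -2.15 in M KSR5 (adjusted p = 0.000748), -1.99 in M KSR3 (adjusted p = 0.00114), -1.56 in F KSR4 (adjusted p = 0.00992) and -1.43 in F KSR2 (adjusted p = 0.0181), each with an SE of 0.37. In the female lines the calls were lost without TX 2i ESC replicate 3 (adjusted p = 0.0842 in F KSR2 and 0.0533 in F KSR4), and in F KSR2 also without its replicate 2 (adjusted p = 0.0989). Myc passed in both male lines, 8.42-fold higher in M KSR3 (adjusted p = 0.0265) and 11.6-fold higher in M KSR5 (adjusted p = 0.0146), and these calls were lost without TX 2i ESC replicate 2 (adjusted p = 0.122 and 0.0765). In M KSR3 it was also lost without TX 2i ESC replicate 3 or its own replicate 2 or 3, and in M KSR5 without its replicate 2, with adjusted p from 0.0506 to 0.0842. In F KSR4 the Myc difference was 0.76 with an interval of -1.23 to 2.76, and 2.21 (adjusted p = 0.0455) without replicate 2 of that line.

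Klf4 was about 2-fold lower than in TX 2i ESCs in F KSR4 (2.12-fold, adjusted p = 0.0292) and M KSR5 (2.06-fold, adjusted p = 0.0298). Both calls rest on the full set of libraries and were lost in most single omissions, with adjusted p up to 0.099 and 0.181. Without the filter on low values the adjusted p was 0.0505 and 0.0504, and in F KSR4 it was 0.0523 with median-of-ratios scaling and 0.0588 in a fit of these groups alone. Pou5f1 passed in F KSR4 (-0.60 ± 0.16, adjusted p = 0.0184) and M KSR3 (-0.59 ± 0.16, adjusted p = 0.0135), and both calls were lost without TX 2i ESC replicate 3 (adjusted p = 0.0857 and 0.0648). The call in M KSR3 was also lost without its replicate 1 (adjusted p = 0.0752), and that in F KSR4 with median-of-ratios scaling (adjusted p = 0.0524) and in a fit of these groups alone (adjusted p = 0.195). Mycn passed in M KSR3 alone among the 4 lines, 2.51-fold lower than TX 2i ESCs (adjusted p = 0.0161, and 0.0513 to 0.0689 in the 4 single omissions that lost the call). M KSR3 was also the line with the highest summed endoderm markers, 7.62 to 7.87 against 3.70 to 4.73 in TX 2i ESCs, and their part in its Mycn, Myc, Nanog and Pou5f1 values was not tested.

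**Figure D2:**
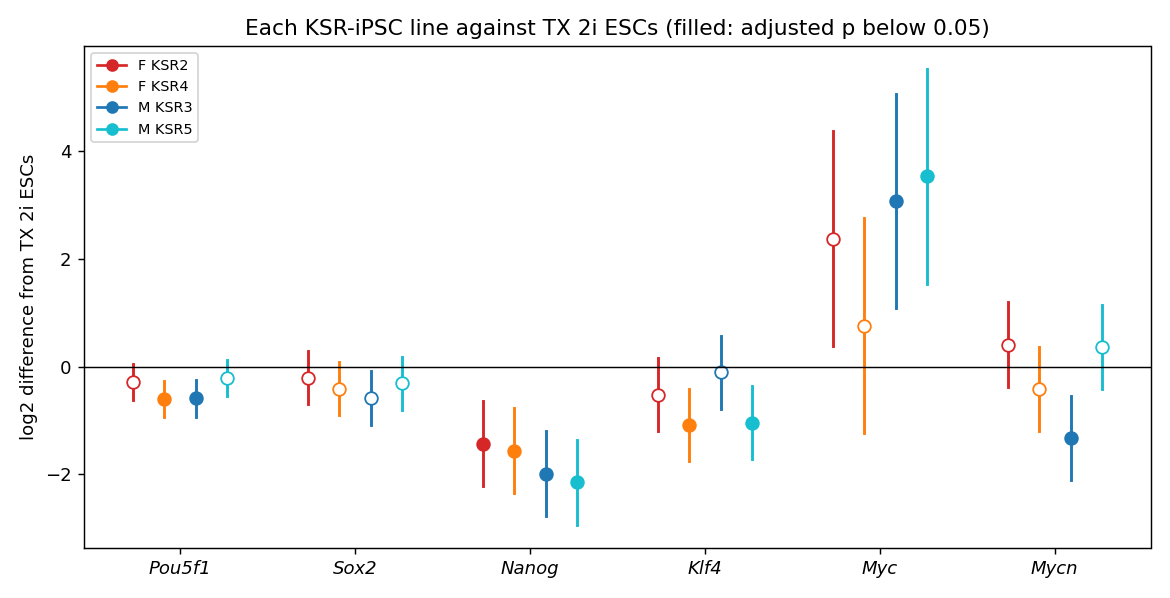
The vertical axis gives the log2 difference of each KSR-iPSC line from TX 2i ESCs for the 6 genes, with limma's 95% interval as a line; filled points passed an adjusted p of 0.05. Nanog lies below 0 in all 4 lines, from -2.15 to -1.43, and the Myc intervals are the widest.

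The 6 female and 6 male KSR-iPSC libraries were compared to see whether the factors depend on the sex of the donor cell. None of the 6 genes passed in limma (0 of 6), against a background of 2.87% of 13609 genes; 2 genes, Nanog and Myc, had an unadjusted p below 0.05, and limma-voom on recovered reads also called 0. Nanog was 0.57 ± 0.23 higher in the female libraries on the log2 scale (adjusted p = 0.19, interval 0.09 to 1.06), with 8.25 to 9.75 in female and 7.75 to 8.71 in male libraries. Myc was 1.74 lower in the female libraries on the log2 scale (difference -1.74 ± 0.69, adjusted p = 0.186), and the difference was -1.0 without F KSR4 replicate 2. The intervals of the other 4 genes were -0.38 to 0.30 for Pou5f1, -0.19 to 0.47 for Sox2, -0.86 to 0.41 for Klf4 and -0.42 to 1.37 for Mycn. Differences between the lines of 1 sex enter these intervals, and with 2 lines per sex the line and the sex cannot be fully told apart.

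Within a sex, Mycn between the male lines was the only difference of the 6 genes that passed with all libraries. M KSR3 held 6.56, 6.21 and 6.30 log2 RPM of Mycn and M KSR5 8.22, 7.98 and 7.95, ranges far apart. How many of all genes were separated in this way was not counted. M KSR3 was 3.24-fold lower (-1.69 ± 0.37, adjusted p = 0.0156), 1 of 6 genes against a background of 4.48%. The value ranged from -1.80 to -1.61 when single libraries were left out, and the call was lost without M KSR3 replicate 2 or 3 or M KSR5 replicate 1 or 2 (adjusted p from 0.0551 to 0.0801). Klf4 and Pou5f1 had unadjusted p below 0.05 between the male lines (Klf4 0.94, adjusted p = 0.105; Pou5f1 -0.37, adjusted p = 0.215), and Klf4 passed without M KSR5 replicate 3 (1.29, adjusted p = 0.0296). Between F KSR2 and F KSR4 none passed in limma (0 of 6, background 1.14%); Mycn alone had an unadjusted p below 0.05, with a difference of 0.82 and an interval of 0.03 to 1.6, and limma-voom called 0. The Mycn difference was 1.28 without F KSR4 replicate 1 (limma, adjusted p = 0.0258), and it fell to 0.26 without F KSR4 replicate 2.

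Myc and Mycn were unevenly shared between the groups. In RPM per kb of exon, Mycn made up 1.14 to 2.06% of the sum of both genes in the MEFs, 37.3 to 57.6% in M KSR3 and 60.8 to 74.7% in M KSR5. It made up 89.3 to 96.9% in TX 2i ESCs, 76.9 to 96.4% in F KSR4 and 65.6 to 90.8% in F KSR2. Mycn was thus the minor transcript in the MEFs and in 2 of 3 M KSR3 libraries and the major one elsewhere. The share is given as a description, chosen after the values had been seen. The sum of both genes was 154 to 158 RPM per kb in M KSR5, 63.3 to 76.5 in M KSR3 and 61.6 to 111 in TX 2i ESCs, and it ran from 28.6 to 135 in F KSR4 and from 74.4 to 181 in F KSR2. The lowest sum of a pluripotent library was that of F KSR4 replicate 2, where Myc had 45 reads and Mycn 1295.

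**Figure D3:**
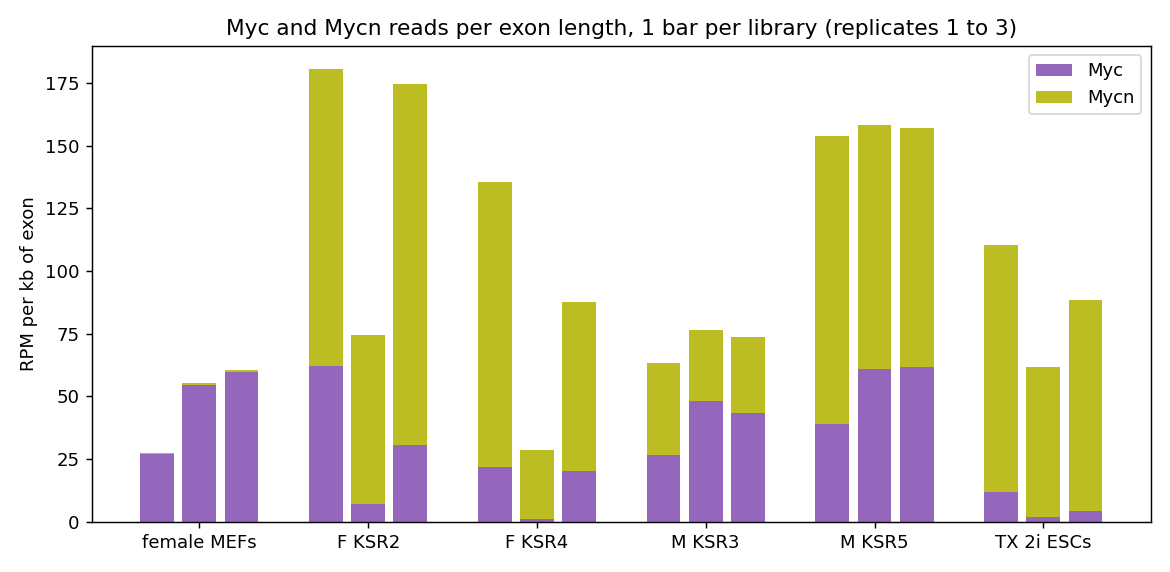
Stacked bars give the RPM per kb of exon of Myc and Mycn in each library, replicates 1 to 3 from left to right within a group. The MEFs hold almost no Mycn, M KSR3 holds similar amounts of both genes, and the bar of F KSR4 replicate 2 is the lowest of the pluripotent libraries at 28.6.

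Within groups the genes differed in how steady they were. The SD of 3 libraries was 0.08 to 0.25 for Pou5f1 in the 5 pluripotent groups and 0.07 to 0.34 for Sox2 on the log2 scale. For Myc it was 2.51 in F KSR4, 1.62 in F KSR2 and 1.32 in TX 2i ESCs, but 0.45 in M KSR3 and 0.37 in M KSR5. Replicate 2 sets much of this spread: without it the SD of the other 2 libraries was 0.08 in F KSR4, 0.73 in F KSR2 and 1.07 in TX 2i ESCs. The SD of Mycn was 1.03 in F KSR4 and 0.53 without that replicate, beside 0.57 in F KSR2. Over the 15 pluripotent libraries the range was 1.02 for Pou5f1, 0.77 for Sox2, 1.99 for Klf4, 2.38 for Mycn, 3.10 for Nanog and 5.91 for Myc; without F KSR4 replicate 2 it was 5.02 for Myc and 2.34 for Mycn.

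The allelic reads of these genes are few or many depending on the gene. Allelic reads made up 27.6 to 30.5% of the Klf4 reads in the MEFs and 26.4 to 31.9% in the pluripotent libraries, and 21.7 to 26.1% of the Nanog reads in the latter. The share was 14.6 to 16.4% for Sox2, 12.1 to 19.9% for Mycn, 0 to 7.42% for Myc and 0.04 to 0.50% for Pou5f1 over the pluripotent libraries. Replicate 3 of F KSR4 was lowest in this share for Pou5f1, Nanog and Mycn, with 0.04, 21.7 and 12.1%. Shares of BL6 reads are given for libraries with at least 5 allelic reads, with 95% Wilson intervals for single libraries that cover counting error only.

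Nanog was read almost entirely from the BL6 allele in F KSR2. BL6 reads made up 99.3% (2227 of 2243), 99.6% (1412 of 1418) and 95.0% (3412 of 3591) of its allelic reads there, against 53.8 to 58.3% in the other 3 KSR-iPSC lines and 46.6 to 49.9% in TX 2i ESCs. The other genes of chromosome 6 showed the same in F KSR2, with 98.6, 98.6 and 93.1% BL6 reads, against 51.4 to 52.8% in the other lines. The paper reports maternal uniparental disomy of this chromosome in this line, and the mother was BL6. The Nanog share of F KSR2 thus describes the whole chromosome and cannot be read as a choice of allele at Nanog itself. The Nanog level of F KSR2 was 8.97, 8.25 and 9.75 log2 RPM, and it did not pass against F KSR4, where both alleles were read (difference 0.13, interval -0.66 to 0.92).

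Klf4 showed the reverse in TX 2i ESCs. Its BL6 share was 25.4%, 31.9% and 34.2% there (Wilson intervals 23.2 to 27.8%, 29.4 to 34.5% and 31.7 to 36.8%), and 45.1 to 57.6% in the KSR-iPSC lines and 49.9 to 53.1% in the MEFs. The other genes of chromosome 4 had BL6 shares of 27.8, 31.9 and 37.5% in the same ESC libraries. In F KSR2 the rest of chromosome 4 had a share of 42.7 to 44.4%, and Klf4 lay above it by 11.1, 14.2 and 0.71 percentage points. The mean Klf4 share there was 51.95%, beside 50.41 to 53.23% in the other lines and 51.24% in the MEFs. The rest of chromosome 4 had a mean of 51.24 to 53.09% in the other lines, so in F KSR2 the reference had shifted rather than Klf4.

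Mycn and Myc were read more from the CAST allele than their chromosomes were. The BL6 share of Mycn lay below that of the rest of chromosome 12 in all 15 pluripotent libraries, with differences of -17.3 to -6.28 percentage points and a mean of 39.0% ± 4.26 (SD, n = 15) against 51.9% ± 2.24. In the MEFs all 14 allelic Mycn reads were CAST. The BL6 share of Myc lay below that of the rest of chromosome 15 in all 14 pluripotent libraries with enough reads, with differences of -32.4 to -3.36 points, and in the 3 MEF libraries, with differences of -14.9 to -6.07 points. In M KSR5 the Myc share was 53.6% ± 2.1 (SD, n = 3), higher than the 31.0 to 35.6% of the other pluripotent groups, and the rest of chromosome 15 was also higher there, 56.0 to 65.1% against 49.9 to 51.9%.

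Sox2 was tilted the other way. Its BL6 share was 59.9% ± 1.95 over the 15 pluripotent libraries, above that of the rest of chromosome 3 in all 15, by 2.76 to 10.8 points, and it was 58.5 to 61.0% in each group mean. Pou5f1 had 5 to 119 allelic reads per library and a BL6 share of 53.8% ± 7.21 over 15 libraries, beside 51.6% ± 0.39 for the rest of chromosome 17; its position above or below the chromosome differed between libraries.

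The shares of the KSR-iPSC libraries and TX 2i ESCs, and of female and male KSR-iPSCs, were compared with exact two-sided permutation tests, 12 tests in all. In the first comparison Klf4 differed by 21.1 points and Nanog by 18.7 points, both higher in the KSR-iPSCs, with p = 0.0044, the smallest these permutations can give, and an adjusted p of 0.0176. The mean Nanog share was 97.96% in F KSR2 and 54.8 to 57.65% in the other lines, against 48.28% in TX 2i ESCs. The disomy reported for F KSR2 enters this Nanog difference and the one between the sexes. The permutations treat the libraries of 1 line as separate units, and no whole line was left out. Shares were also taken as the distance from the rest of the chromosome, an alternative added after the data had been seen. The Klf4 difference was then 3.56 points (exact permutation, adjusted p = 0.422) and the Nanog difference 4.67 points (exact permutation, adjusted p = 0.0346). The lower share of the rest of chromosome 4 in F KSR2 enters the Klf4 value. Mycn had a BL6 share of 41.4% ± 4.17 in the 6 female and 35.2% ± 1.70 in the 6 male KSR-iPSC libraries, a difference of 6.13 points (exact permutation p = 0.00433, adjusted p = 0.0176). As a distance from the rest of chromosome 12, which had 56.9 and 57.6% BL6 reads in 2 libraries of F KSR2, it was 4.16 points (exact permutation, adjusted p = 0.0346). With 2 lines per sex, differences between lines enter this comparison. The remaining 9 tests had adjusted p from 0.169 to 0.905. Among them the Nanog difference between the sexes was 18.8 points (exact permutation, adjusted p = 0.377). As a distance from its chromosome it turned to -3.27 points (exact permutation, adjusted p = 0.0346). In F KSR2 the rest of chromosome 6 had 93.1 to 98.6% BL6 reads, so a share above it is capped, and the distance was 0.74 to 1.88 points. The distance was 1.65 to 5.01 points in F KSR4 and 3.63 to 6.78 in the male lines. Because the disomy limits the female distances, this test cannot show a sex difference at Nanog itself. Against TX 2i ESCs, Sox2 differed by -1.16 points (adjusted p = 0.522) and Mycn by -3.64 (adjusted p = 0.377), and with the deposited per-allele values both passed, with -6.16 (adjusted p = 0.0352) and -8.03 points (adjusted p = 0.0422). The BL6 share of all allelic reads also differed, with 55.4 to 58.7% in the KSR-iPSC libraries and 51.3 to 52.1% in TX 2i ESCs. Its part in the shift of the per-allele values was not tested. Against the MEFs, with 3 libraries a side, p cannot go below 0.1, which was reached for Klf4 in TX 2i ESCs (-20.8 points) and for Myc in M KSR5 (11.5 points).

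**Figure D4:**
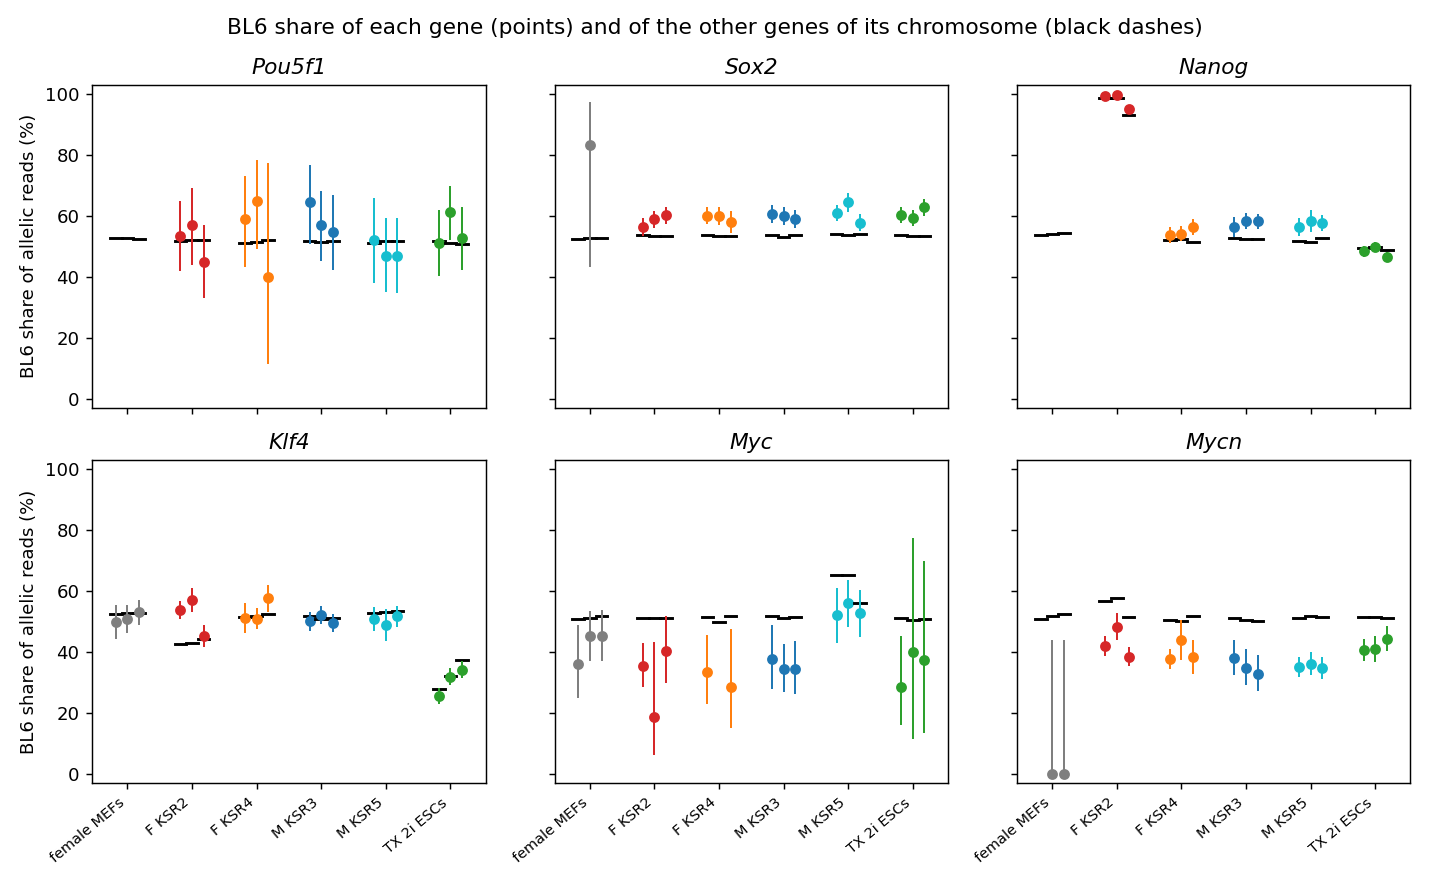
Points give the BL6 share of allelic reads of each gene in each library with at least 5 such reads, with 95% Wilson intervals, and black dashes give the share of all other genes of its chromosome in that library. Nanog in F KSR2 and Klf4 in TX 2i ESCs lie close to their chromosomes, and Mycn and Myc lie below theirs in every pluripotent library shown.

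The partners of these factors were described by lists. Of 15 core network partners, 14 were higher in the pluripotent groups than in the MEFs and 0 lower, with a median log2 difference of 9.49 beside 0.21 over all genes tested. Over all genes 42.1% passed as higher and 74.6% in either direction, and each count of this comparison is read against those shares. Of these partners 4 had 0 reads in every MEF library, and with these at the limit of 3 reads the median was 7.87. The largest differences were those of Esrrb, an orphan nuclear receptor (13.14 ± 0.15, with a median of 1 read in the MEFs), Zfp42, also known as Rex1, and Sall4. Zfp42 had 2359 to 7028 reads in the pluripotent libraries and Sall4 2542 to 7235, against 0 in the MEFs. Of 12 genes taken as targets of Oct4 and Sox2, 11 were higher and 1 lower, with a median of 10.99, and of 9.62 with 3 genes at that limit. Utf1 and Fgf4 differed by 12.39 and 12.25, and Tdgf1, a Nodal co-receptor, had 2257 to 14227 reads in the pluripotent libraries and 0 in the MEFs. Of 22 Myc target genes 19 were higher and 0 lower, with a median of 1.35; the largest differences were those of Shmt1 (2.97), Odc1 (2.01), the rate-limiting enzyme of polyamine synthesis, and Polr1b (1.87). Of the 13 genes of the Myc network list 11 were in the table, and 5 rose and 1 fell, the last being Mxd4, a Max partner that antagonises Myc (-4.36 ± 0.31).

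Against TX 2i ESCs, where 23.0% of all genes passed and 12.0% passed as lower, 2 of the 15 core partners passed, both lower in the KSR-iPSC lines: Prdm14 by -1.89 ± 0.26 (adjusted p = 7.02e-05) and Tfcp2l1 by -1.57 ± 0.31 (adjusted p = 0.00157), both factors of naive pluripotency. The median of the list was -0.03, beside 0.00 over all genes. Of the 12 Oct4 and Sox2 targets 3 were higher and 2 lower, led by Lin28a, an RNA-binding protein that blocks let-7 maturation (1.99 ± 0.24), and Spp1 (-1.38 ± 0.30). In the Myc network Max, the dimer partner of both Myc and Mycn, was higher in the lines by 0.69 ± 0.14 (adjusted p = 0.00173), as was Mxd4 by 1.19 ± 0.32. Of the 22 Myc targets 1 passed, Nop56, lower by -0.51 ± 0.16, with a list median of 0.08. Of the 7 endoderm markers 6 were higher in the lines, led by Sox7 (5.54) and Gata6 (3.98), with a median of 3.23.

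The families of the factors moved in both directions. Against the MEFs, 9 Sox genes were higher and 5 lower of 16 tested, 11 Klf genes higher and 3 lower of 16, and 7 Pou genes higher and 2 lower of 9, beside the 74.6% of all genes that passed. Sox15 (8.12), Sox1 (7.80) and Sox3 (7.66) had the largest differences of the first family, Klf5 (4.17), Klf15 (3.18) and Klf17 those of the second, and Pou4f2, Pou2f3 and Pou4f1 those of the third. In the last family these 3 genes, with 27 to 524 reads in the pluripotent libraries, had 0 reads in every MEF library, as had Klf17, so that their fitted differences rest on the value held for 0 reads. Because of such genes the Klf family median of 1.66 was 1.21 with Klf17 at the limit, and the Sox and Pou medians were 1.5 and 3.05 both ways. In the KSR-iPSC lines against TX 2i ESCs, 4 Sox genes were higher and 3 lower, 3 Klf genes higher and 3 lower, and 2 Pou genes higher and 2 lower, beside 23.0% of all genes. Klf12 was higher in the lines by 2.93, and Klf15 differed by -1.68. Klf17 also passed as higher, with a median of 14.5 reads in the lines and 0 in TX 2i ESCs.

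Between female and male KSR-iPSCs, where 2.87% of all genes passed, 1 of 15 core partners did, Prdm14, higher in the female lines by 1.06 ± 0.23 (adjusted p = 0.0206), and 1 Pou gene, Pou2f3, lower by -1.87 ± 0.43 (adjusted p = 0.0271). Of the endoderm markers 2 of 7 passed, Pdgfra (-2.22) and Dab2 (-1.54), and of the fibroblast markers 1 of 12 tested, Pdgfrb (-1.97), each lower in the female lines. With the line as a random effect in limma the adjusted p of these 5 genes was 0.0602 to 0.0944, past the threshold for none. Between M KSR3 and M KSR5, where 4.48% of all genes passed, the passing genes of these lists were Tfcp2l1 (1.42 higher in M KSR3), Phc1 (-0.81), Sox3 (-2.59), Sox12 (-1.25), Pou3f1 (-2.45), Mlx (0.93) and 3 of 7 endoderm markers, Gata6, Gata4 and Dab2, higher in M KSR3 by 2.77, 2.12 and 1.53. Sox3 and Pou3f1 kept their calls in all 6 single omissions. The call of Tfcp2l1 was lost in all 6, those of Mlx, Gata4 and Dab2 in 5, those of Sox12 and Gata6 in 4 and that of Phc1 in 3. Between F KSR2 and F KSR4, with 1.14% of all genes passing, only the Myc targets Srm (-1.29) and Mrto4 (-1.23) passed among these lists, both lower in F KSR2. Srm lost its call in 4 of 6 single omissions and Mrto4 in 3, and neither passed in a fit of these lines alone (adjusted p = 0.648 for both).

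The genes whose levels followed each factor most closely over the 15 pluripotent libraries were found among 9014 genes with a log2 RPM above 2 in all of them. Pearson's r is given as a description, since the libraries share groups. It was computed with F KSR4 replicate 2 included and not without that library. For Pou5f1 they were Klf16 (0.919), Rnd3 (0.838) and Hmg20b (0.825), for Sox2 Ap2a2 (0.901), Nid2 (0.898) and Lrp11 (0.889), and for Nanog Dirc2 (0.963), Chmp4c (0.931) and Gss (0.929). For Klf4 they were Rbbp5 (0.929), Pcx (0.889) and Tbx3 (0.883), for Myc Fastkd3 (0.953), Ccrn4l (0.946) and Actn4 (0.944), and for Mycn Dock5 (0.932), Mtap7d1 (0.906) and Ss18 (0.898). The rank correlation (Spearman's rho) of Myc was 0.825 with Fastkd3, 0.957 with Ccrn4l and 0.836 with Actn4. Among the 6 factors themselves the highest r was 0.655, between Pou5f1 and Nanog, and the lowest -0.486, between Nanog and Myc; r between Myc and Mycn was 0.295.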

How the data were processed

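RNA-seq values of 18 libraries were used; the DNA methylation samples of the series were not analysed here. Per the labels and the study's methods, the authors used Trim Galore 0.6.1 on strand-specific reads, aligned them to GRCm38 with HISAT2 2.1.0, and deposited log2 RPM per gene from SeqMonk, without length correction, over all reads and over the reads of each allele (4 columns per library; 0 reads held at 0.9 read). Reads were recovered by undoing the logarithm. Depth was 13183036 to 17921280 reads per library, and a count of 0 allows up to 3 reads.

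Groups were compared with limma 3.58.1 (trend) in R 4.3.3 on the deposited values, for genes above 0 in at least 3 libraries, at a Benjamini-Hochberg adjusted p of 0.05 over all genes tested; fitted SEs use all libraries in the fit. Female and male lines were fitted on their 12 libraries, the rest on all 18. BL6 shares were compared by exact permutation tests with scipy 1.17.1. The limma functions were tested on simulated data. Alternatives were another pseudocount, filter or scaling, limma-voom, a replicate block, other sets of libraries and single omissions. The 6 genes and all lists were chosen with earlier results of these data known. All 6 genes are named, with up to 3 genes per list and comparison with the largest difference past the threshold and the 3 genes with the highest r per factor. RefSeq gave exon lengths and promoter windows.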

Additional observations from a re-analysis of the deposited data

How the results depend on the processing

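No paired analysis beyond a replicate block was made, since the numbers did not pair the libraries in most pairs of groups: same-numbered libraries deviated together in all 3 pairs (r above 0.1) in 1 of 15 pairs of groups, with r from -0.20 to 0.38. The best match had the same number for all 3 libraries of F KSR2 and of F KSR4 with TX 2i ESCs, and for 0 to 2 elsewhere. Replicate 2 had the lowest Myc level in these groups, 6.86, 1.04 and 1.92 RPM per kb. Whether they share a batch was not tested. With the replicate block, counts of genes past the threshold changed by 0.81 to 1.69 times, the largest being F KSR2 against F KSR4 (282 against 167), and 0 calls of the 6 genes changed; of the other genes named, Tfcp2l1 and Gata4 between the male lines and Pdgfra between the sexes lost theirs (adjusted p = 0.0622, 0.0507 and 0.0617). Fitting only the groups compared moved the counts to 485 (F KSR4 against TX 2i ESCs), 5350 (M KSR3 against TX 2i ESCs), 1 (F KSR2 against F KSR4) and 1851 (M KSR3 against M KSR5). For female against male KSR-iPSCs the count of 390 became 1523 in a fit of all 18 libraries, 138 with the line as a random effect and 4 with line means.

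When single libraries were left out, counts of genes ranged from 2125 to 4317 for KSR-iPSC lines against TX 2i ESCs, 1153 to 1518 for F KSR2, 1372 to 3032 for F KSR4, 2198 to 2569 for M KSR3 and 1756 to 2213 for M KSR5 against TX 2i ESCs, 66 to 1660 for F KSR2 against F KSR4, 145 to 585 for M KSR3 against M KSR5 and 187 to 521 for female against male. Of the 6 genes, 1 to 4 passed for KSR-iPSC lines against TX 2i ESCs, 3 to 8 of the 24 pairs line by line, 0 to 1 for F KSR2 against F KSR4 and 0 to 2 for M KSR3 against M KSR5. Fewer libraries leave fewer degrees of freedom.

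Directions turned only for differences that had not passed. On the log2 scale these were Myc in M KSR3 (-0.58 to 0.04 over single omissions) and in M KSR5 (-0.01 with median-of-ratios scaling, -0.11 to 0.46 over omissions) against the MEFs, Mycn in F KSR4 against TX 2i ESCs (-0.88 to 0.14, the latter without F KSR4 replicate 2), Nanog between the female lines (-0.25 to 0.5) and between the male lines (-0.10 to 0.39), and Pou5f1 between the sexes (0.03 with median-of-ratios scaling, -0.13 to 0.06 over omissions).

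Of the BL6 shares taken as distances from their chromosomes, Klf4 against TX 2i ESCs moved to 3.56 points (not past the threshold) and Myc to -0.32. Nanog between the sexes moved to -3.27 points (exact permutation, adjusted p = 0.0346), where the disomy of F KSR2 limits the distance that line can reach. With the deposited per-allele values Sox2 (-6.16) and Mycn (-8.03) passed against TX 2i ESCs, Myc was -1.21, Pou5f1 between the sexes 0.70, and Klf4 against the MEFs -1.30 in F KSR2 and -0.46 in F KSR4. Pou5f1 between the sexes was 2.09 with at least 20 allelic reads, and Klf4 in M KSR3 against the MEFs 0.72 as a distance from the chromosome. Over single omissions the difference from TX 2i ESCs ran from 15.7 to 19.9 points for Nanog and 18.5 to 22.9 for Klf4. With 2 ESC libraries left, both genes had an exact permutation p of 0.022 and an adjusted p of 0.0879. The difference from TX 2i ESCs ran from -3.60 to 1.48 for Pou5f1 and -0.23 to 5.48 for Myc, and between the sexes that of Pou5f1 ran from -2.91 to 2.09. For Klf4 against the MEFs the omissions gave -1.52 to 0.08 in M KSR5, -1.5 to 0.20 in M KSR3, -0.22 to 3.17 in F KSR4 and -1.85 to 4.15 in F KSR2. The cause of these changes was not tested. A fit of only the groups compared was not run for the 5 pluripotent groups against the MEFs, where it is the same fit, and depth limits the shares of Pou5f1 and Myc.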
